A study of Mus musculus with 6 samples.

Results

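Fibroblast growth factor (FGF) receptors, the ligand Fgf2 and the genes that ERK signalling switches on to restrain itself were examined in mouse cells turning into multiciliated ependymal cells with and without Edf1. The set was defined by gene symbol and holds 10 genes, Fgf2, Fgfr1, Fgfr2, Fgfr3, Spry1, Spry2, Spry4, Dusp6, Etv4 and Etv5, out of 22851 symbols in the count table. All 10 were found in the table and all 10 had enough counts to be tested. The cells were radial glial cells taken at postnatal day 0 to 3 from C57BL/6J brains, expanded with 10% serum and then kept without serum for 6 days to become ependymal cells, which carry many motile cilia and line the brain ventricles. WT cells gave 3 libraries, and 3 came from cells of Edf1 KO mice made with CRISPR and Cas9. Both groups share the strain, the culture and the induction, and no transgene or Cre driver is named for either. The design text calls the replicates biological. Whether each came from its own animal or litter is not given. The p-values set the difference between genotypes against the spread between these libraries, which may not stand for the spread between animals or litters.

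FGF ligands bind receptor tyrosine kinases at the cell surface together with heparan sulfate, and the receptors pass the signal through RAS and a kinase chain to ERK. ERK then raises transcription of its own brakes: Sprouty proteins, which act between receptor and RAF, and the phosphatase Dusp6, which dephosphorylates ERK. The ETS transcription factors Etv4 and Etv5 are induced by the same signal and are widely used as a readout of FGF activity. In the developing forebrain FGF signalling maintains radial glia, and Fgfr3 is a known marker of radial glia and astrocytes.

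Total counts were 13071766 to 28087006 per library, and WT replicate 2 was the shallowest. That library also stood apart from its group over all genes: a chi-square test of the counts gave 8.38 and 9.63 per gene against WT replicates 1 and 3, where WT replicates 1 and 3 gave 3.39 against each other and the knockout pairs 2.97 to 4.23. Edf1, the targeted gene, had 82.9 ± 2.85 CPM (read counts scaled to a common library size) in WT and 11.3 ± 1.72 in KO cells (SD, n = 3 each), and all 3 knockout libraries were lower. With a threshold of 0.05 on the adjusted p-value (edgeR, quasi-likelihood), 26.9% of all 14243 tested genes were called, 12.7% with a higher and 14.2% with a lower level in the knockout. In bulk RNA, fewer cells of a type and less RNA per cell cannot be told apart. Markers of the ependymal cells themselves were present, and 16 of 16 tested ones were lower in the knockout. Their summed level was 2969 to 3180 CPM in WT and 1623 to 1750 CPM in the knockout.

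Of the 10 genes, 3 were higher in the knockout and none was lower. The 3 were the Sprouty gene Spry1 and both ETS factor genes, Etv4 and Etv5. The share of 3 in 10 stands beside 12.7% called higher and 14.2% called lower among all tested genes. Every one of the 10 had a log2 fold change above 0, against 50.5% of all tested genes, and the median was 0.23 against 0.0029 over all of them. Because the 10 genes were chosen with earlier results of these data known, these shares are a description and no test. The direction held for all 10 with the 3 scalings tried between libraries, but with a correction for GC content and transcript length Fgfr2 and Fgfr3 fell below 0. The groups did not overlap in CPM for 6 of the 10, against 43.3% of all tested genes in either direction and 21.3% with the knockout higher. The changes were small: the highest was 1.48-fold, for Spry1. The count of 3 depended on single libraries. It was 1 without knockout replicate 2, where Spry1 alone was called, and 2 without knockout replicate 3, where Etv4 was lost. WT replicate 2, the library that stood apart, was the lowest of the 6 libraries for every gene of the set except Fgfr3. Without it the count was 4, with Fgfr1 added. The log2 fold changes were then 0.53 for Spry1, 0.34 for Etv4 and 0.22 for Etv5, and that of Fgfr2 was -0.033.

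**Figure D1:**
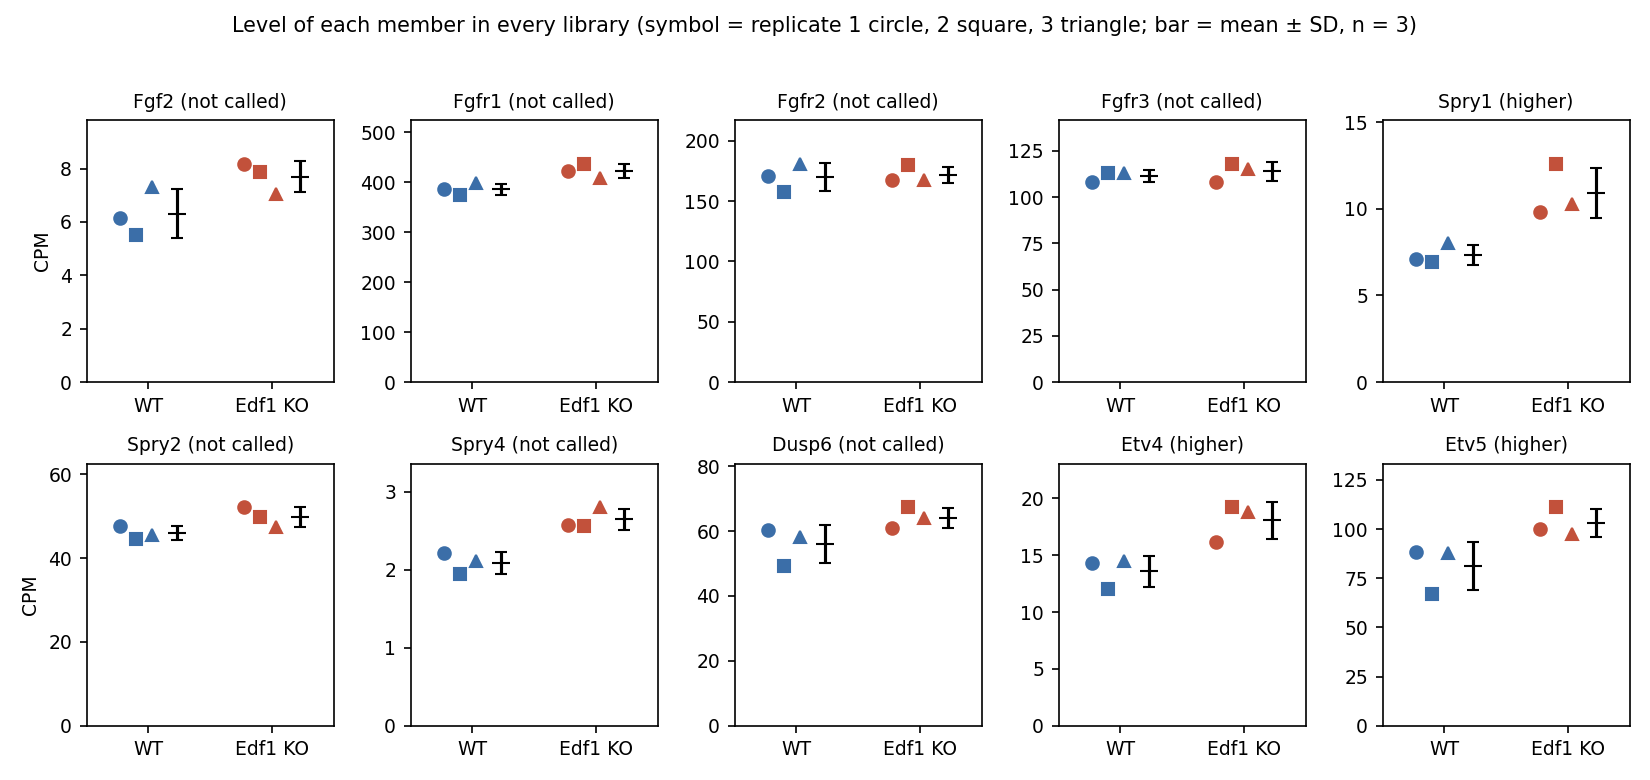
Level of each of the 10 genes in CPM (vertical axis from 0) in 3 WT and 3 Edf1 knockout libraries, with the mean and SD of each group (n = 3) as black bars. The knockout points lie above all WT points for Spry1, Etv4, Etv5, Dusp6, Fgfr1 and Spry4, and the groups overlap for Fgf2, Fgfr2, Fgfr3 and Spry2.

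**Figure D2:**
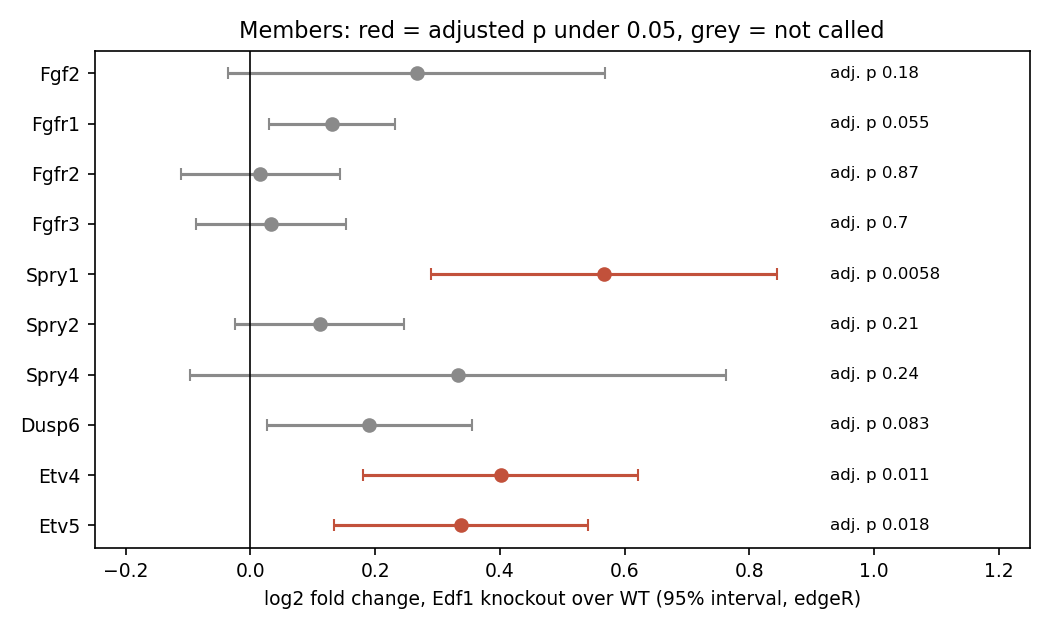
Log2 fold change of Edf1 knockout over WT for each gene, with its 95% interval from edgeR's quasi-likelihood fit (n = 3 each). The intervals of Spry1, Etv4 and Etv5 lie farthest from 0, while those of Fgfr2 and Fgfr3 are narrow and include 0.

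The ligand Fgf2, a growth factor long used to keep neural progenitors dividing in culture, was scarce. It lies at chr3:37348477-37410106 on the plus strand (GRCm38.p6). The WT libraries had 6.14, 5.52 and 7.30 CPM and the knockout libraries 8.18, 7.86 and 7.05 CPM in replicates 1, 2 and 3. WT replicate 3 reached into the knockout range, so the groups overlap. The log2 fold change was 0.27 (95% interval -0.036 to 0.57), with an adjusted p-value of 0.181 by edgeR. Nudt6 lies on the opposite strand and covers 9.4% of the exon length of Fgf2. Whether the counting used strand is not given in the sources used here, so reads of both genes in that stretch cannot be assigned with certainty. Nudt6 itself had 23.8 ± 0.59 CPM in WT, and in the knockout 25.6 ± 2.16 CPM (SD, n = 3), with an adjusted p-value of 0.384 by edgeR.

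The receptors were far more abundant than Fgf2. Per kilobase of exon, Fgfr1 stood at 39.1 ± 1.1 CPM in WT, Fgfr2 at 16.4 ± 1.12 and Fgfr3 at 15.6 ± 0.44 (SD, n = 3), while Fgf2 stood at 0.932 ± 0.133. Fgfr1 therefore led the receptors, and the ranges of Fgfr2 and Fgfr3 overlapped in both genotypes. That overlap holds for the length of all annotated exons, 10328 bp for Fgfr2 and 7158 bp for Fgfr3. Their longest transcripts have 4429 and 4245 bp, so how Fgfr2 compares with Fgfr3 depends on the length used. Fgfr1, the receptor found most widely across neural progenitors, lies at chr8:25518759-25575718 on the plus strand. It had 386, 375 and 398 CPM in the WT libraries and 423, 437 and 409 CPM in the knockout libraries. Every knockout library was above every WT library, by a small step. The log2 fold change was 0.13 (95% interval 0.030 to 0.23), and the adjusted p-value of 0.0550 by edgeR missed the threshold. Fgfr1 sat at the edge of the call: with WT replicate 2 left out its adjusted p-value was 0.0284 (log2 fold change 0.11), and with WT replicate 3 left out 0.0456 (log2 fold change 0.15). It was 0.0343 with library size alone and 0.0453 when a mean of 50 counts was required. After the correction for GC content and length the log2 fold change was 0.039, with an adjusted p-value of 0.530.

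Neither Fgfr2 nor Fgfr3 passed the test, and the intervals of both were narrow. Fgfr2, a receptor with splice forms that differ in ligand choice, lies at chr7:130162451-130266808 on the minus strand. Its libraries had 171, 158 and 181 CPM in WT, and in the knockout 168, 180 and 168 CPM. The knockout values lie inside the WT range. The log2 fold change was 0.016 (95% interval -0.11 to 0.14), with an adjusted p-value of 0.873 by edgeR. Fgfr3, at chr5:33721724-33737068 on the plus strand, had 108, 113 and 113 CPM in WT, and in the knockout 108, 118 and 115 CPM. The groups overlap. The log2 fold change was 0.033 (95% interval -0.087 to 0.15), with an adjusted p-value of 0.703 by edgeR. The sign of neither gene was stable: without WT replicate 2 the log2 value of Fgfr2 was -0.033, and without knockout replicate 2 it was -0.018. With the GC and length correction that of Fgfr3 was -0.034. Annotated exons of Fgfr2 overlap those of Ctbp2 on the same strand, over 3.0% of the Fgfr2 exon length. Ctbp2 did not pass the test either, with a log2 fold change of -0.047 and an adjusted p-value of 0.586 by edgeR. On the strand opposite Fgfr3, G630022F23Rik covers 13.9% of its exon length.

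The make-up of the receptors within each library does not depend on the scaling between libraries. It does depend on the length taken for each gene, here that of all its annotated exons. Fgfr1 took 55.2%, 54.9% and 54.7% of the summed per-kilobase receptor level in WT replicates 1, 2 and 3. In the knockout it took 57.5%, 56.6% and 56.0%. All knockout shares were above all WT shares, a difference of 1.76 percentage points between the means. An exact two-sided permutation test over the libraries gave p = 0.1, the smallest value that 3 against 3 allows (0.267 after Benjamini-Hochberg adjustment over 4 shares). The share of Fgfr2 was 23.1% ± 0.893 in WT and 22.0% ± 0.212 in the knockout, and that of Fgfr3 was 21.9% ± 0.866 and 21.1% ± 0.761 (SD, n = 3). Their groups overlap, with exact permutation p-values of 0.2 and 0.4. Fgfr4, the receptor best known from liver, fell under the count filter, with 2 to 8 counts in WT and 7 to 14 in the knockout.

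**Figure D3:**
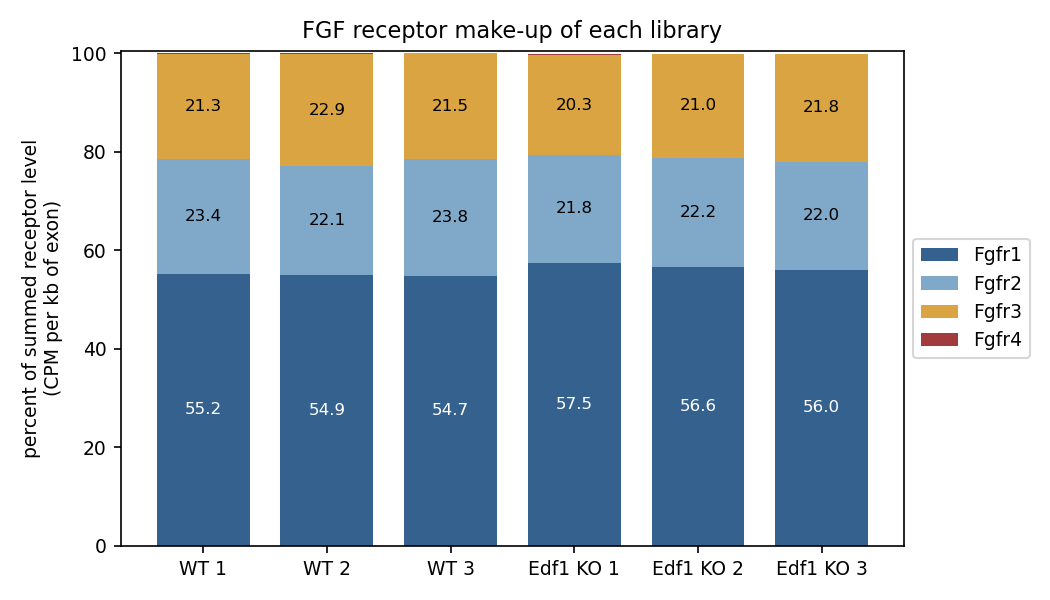
Percent of the summed FGF receptor level, in CPM per kilobase of exon, taken by each of the 4 receptors in every library. Fgfr1 takes 54.7% to 57.5%, Fgfr2 and Fgfr3 take most of the rest, and the Fgfr4 band is too thin to see.

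Of the Sprouty genes, whose proteins damp receptor signalling, 1 of 3 rose. Spry1, at chr3:37639947-37644599 on the plus strand, was the gene of the set with the highest fold change. The WT libraries had 7.12, 6.91 and 8 CPM, from 189, 89 and 148 counts. The knockout libraries had 9.84, 12.6 and 10.3 CPM, from 160, 226 and 292 counts. All knockout libraries were above all WT libraries, and knockout replicate 2 was the highest. Spry1 rose 1.48-fold (95% interval 1.22 to 1.80), a log2 fold change of 0.57 (SE 0.13) with an adjusted p-value of 0.00576 by edgeR. Over all alternatives the log2 value was 0.46 to 0.63 and the adjusted p-value 0.00212 to 0.0322, and the call was never lost. A transcript on the opposite strand that the count table does not list, Gm42922, covers 24.4% of the Spry1 exon length, so reads from it could have been counted as Spry1.

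Spry2, at chr14:105891947-105896819 on the minus strand, was the most abundant Sprouty gene. Per kilobase it stood at 22.0 ± 0.772 CPM in WT, against 2.53 ± 0.199 for Spry1 and 0.440 ± 0.030 for Spry4 (SD, n = 3). Its libraries had 47.7, 44.6 and 45.5 CPM in WT, and in the knockout 52.1, 49.9 and 47.4 CPM. The lowest knockout library was just under the highest WT library. The fold change of 1.08 (95% interval 0.983 to 1.19) did not pass, with an adjusted p-value of 0.214 by edgeR. It did pass after the correction for GC content and length, at a log2 fold change of 0.19 with an adjusted p-value of 0.0285. Spry4, at chr18:38586247-38601347 on the minus strand, had only 25 to 79 counts per library. It had 2.22, 1.94 and 2.11 CPM in WT, and in the knockout 2.58, 2.56 and 2.80 CPM. The groups do not overlap, but the 95% interval of the fold change, 0.935 to 1.70, is wide at this depth, and the adjusted p-value was 0.240 by edgeR.

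Dusp6, at chr10:99263231-99267489 on the plus strand, encodes the cytoplasmic phosphatase that acts on ERK. It had 60.4, 49.3 and 58.3 CPM in WT, and in the knockout 61.1, 67.3 and 64.2 CPM. Knockout replicate 1 was barely above WT replicate 1, and WT replicate 2 was the lowest library. The log2 fold change of 0.19 (95% interval 0.026 to 0.36) missed the threshold, with an adjusted p-value of 0.0834 by edgeR. It was 0.11 without WT replicate 2, with an adjusted p-value of 0.138. After the correction for GC content and length it passed, at 0.24 with an adjusted p-value of 0.0218.

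Both ETS factor genes rose. Etv4, at chr11:101769747-101785310 on the minus strand, had 14.3, 12 and 14.5 CPM in WT, and in the knockout 16.2, 19.2 and 18.8 CPM. Etv5, at chr16:22381313-22439570 on the minus strand, had 88.5, 67.0 and 87.7 CPM in WT, and in the knockout 100, 111 and 97.7 CPM. For both genes all knockout libraries were above all WT libraries. WT replicate 2, the library that stood apart over all genes, was the lowest of the 6 for both. It was also the lowest for Fgf2, Fgfr1, Fgfr2, Spry1, Spry2, Spry4 and Dusp6, and only Fgfr3 differed. Etv4 rose 1.32-fold (95% interval 1.13 to 1.54), a log2 fold change of 0.40 (SE 0.10) with an adjusted p-value of 0.0112 by edgeR. Etv5 rose 1.26-fold, a log2 fold change of 0.34 (SE 0.094, 95% interval 0.13 to 0.54) with an adjusted p-value of 0.0182 by edgeR. Etv4 no longer passed when knockout replicate 2 (log2 value 0.36, edgeR adjusted p-value 0.0545) or 3 (log2 value 0.37, edgeR adjusted p-value 0.0560) was left out. Etv5 no longer passed when knockout replicate 2 was left out (log2 value 0.28, edgeR adjusted p-value 0.0906). Without WT replicate 2, Etv5 was at 0.22 and still passed, with an adjusted p-value of 0.00424 by edgeR. Of the 31-base words in Etv5 transcripts, 30.3% also occur in Gm4798, a processed pseudogene that the count table does not list, so the handling of reads with several matches bears on its count.

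In WT the order of the 10 genes per kilobase was Fgfr1, Spry2, Etv5, Dusp6, Fgfr2, Fgfr3, Etv4, Spry1, Fgf2 and Spry4. From Spry2 to Fgfr3 each gene's WT range overlapped that of the next, so their order within that run is not fixed by these libraries. The order also rests on the length used, here that of all annotated exons of a gene. For Fgfr2 this is 10328 bp against 4429 bp for its longest transcript, and for Fgfr3 7158 against 4245 bp. For Spry2 both lengths are 2087 bp, so the places of Fgfr2 and Fgfr3 in the run depend on that choice. In the knockout Etv5 stood at 25.1 ± 1.71 CPM per kilobase and Spry2 at 23.9 ± 1.14 (SD, n = 3), with overlapping ranges, and the other genes kept their places.

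Promoter sequences are shown for 4 of the inhibitor and ETS genes, 2 that rose (Spry1 and Etv5) and 2 that did not pass (Dusp6 and Spry2), because ETS factors such as Etv4 and Etv5 bind a GGAA core. RefSeq promoter windows on GRCm38.p6 were examined for 7 of the 10 genes, and not for Fgfr1, Spry4 and Etv4. Leaving these genes out does not show that they lack an annotated promoter. Each line gives the 250 bases before an annotated start, 5′ to 3′ on the strand of the gene, with GGAA and its reverse complement TTCC in capitals. For Etv5 the second of its listed starts is shown, whose window lies outside annotated exons. The Spry1 window lies wholly in annotated exons, counted on either strand, and the gene they belong to was not recorded. The windows are chr3:37639697-37639946 (plus) for Spry1, chr16:22438369-22438618 (minus) for Etv5, chr10:99262981-99263230 (plus) for Dusp6 and chr14:105896820-105897069 (minus) for Spry2.
Spry1: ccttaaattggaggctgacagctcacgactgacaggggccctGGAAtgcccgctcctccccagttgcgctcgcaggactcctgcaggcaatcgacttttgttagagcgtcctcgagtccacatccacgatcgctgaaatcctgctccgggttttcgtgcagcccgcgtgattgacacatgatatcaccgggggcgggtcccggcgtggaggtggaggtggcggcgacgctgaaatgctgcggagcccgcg
Etv5: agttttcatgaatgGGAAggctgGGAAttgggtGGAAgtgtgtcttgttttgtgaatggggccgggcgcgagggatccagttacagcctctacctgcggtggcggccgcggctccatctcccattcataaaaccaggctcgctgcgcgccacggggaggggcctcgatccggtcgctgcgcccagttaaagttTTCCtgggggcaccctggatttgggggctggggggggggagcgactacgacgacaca
Dusp6: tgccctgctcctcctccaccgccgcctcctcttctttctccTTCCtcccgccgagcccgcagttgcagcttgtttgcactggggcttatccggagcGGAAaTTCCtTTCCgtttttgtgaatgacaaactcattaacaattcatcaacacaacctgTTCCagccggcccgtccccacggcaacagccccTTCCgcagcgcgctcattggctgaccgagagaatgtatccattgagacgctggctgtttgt
Spry2: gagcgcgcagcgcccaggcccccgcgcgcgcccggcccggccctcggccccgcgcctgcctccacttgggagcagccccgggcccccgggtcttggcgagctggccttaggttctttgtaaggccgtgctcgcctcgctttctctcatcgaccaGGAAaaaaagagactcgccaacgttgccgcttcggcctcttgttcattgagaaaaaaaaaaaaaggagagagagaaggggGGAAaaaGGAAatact

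Counted on both strands, the printed windows hold 1 core in Spry1, 4 in Etv5, 6 in Dusp6 and 3 in Spry2, and the other Etv5 window holds 0. Across 32851 promoter windows of the same length, 93.4% hold at least 1 core and the median is 3. The longer motif CGGAAG, which contains the core, was found once, in the Dusp6 window, and 13.6% of all windows hold it. Another longer motif, CCGGAA, was found in none of the examined windows, and 12% of all windows hold it. A match of letters is a description and shows no binding.

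The surrounding pathway was read from lists of other genes, 135 in all, of which 113 were tested. In the knockout 45 of them were higher and 6 lower, beside 12.7% and 14.2% of all tested genes. The lists differed in how many of their genes were called. Among other ERK target genes 8 of 12 were higher and none lower, with a median log2 fold change of 0.41. In the list of signal relay proteins between receptor and ERK, 2 of 22 were higher and 3 lower, with a median of 0.022. These differences between lists were not tested, and the lists were chosen with earlier results of these data known. Without WT replicate 2 the pathway counts were 48 higher and 7 lower.

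**Figure D4:**
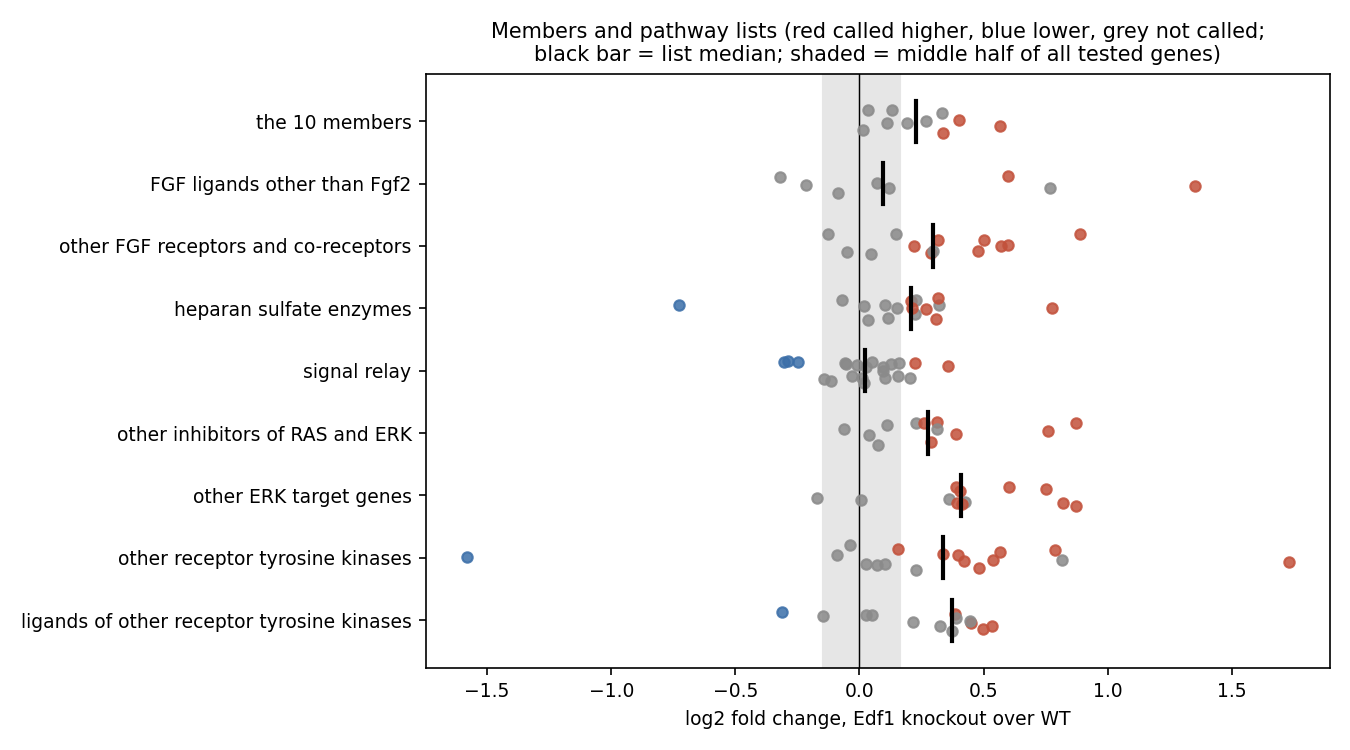
Log2 fold change of Edf1 knockout over WT for the 10 genes and for each tested gene of 8 pathway lists, coloured by the edgeR call, with list medians as black bars and the middle range of all tested genes shaded. The medians are 0.23 for the 10 genes, 0.41 for other ERK targets and 0.022 for the signal relay.

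Among the other ERK targets, the genes of largest change were Phlda1, Epha2, Ccnd1 and Egr1. Phlda1, a growth-factor-induced gene often used in scores of ERK output, rose from 3.58 ± 0.992 to 6.61 ± 0.824 CPM, or 0.87 as a log2 fold change. Epha2, an ephrin receptor, rose from 6.93 ± 0.894 to 12.5 ± 1.18 CPM, or 0.82 as a log2 fold change. Ccnd1, the cyclin that carries growth factor signals into the cell cycle, rose from 80.4 ± 8.80 to 136 ± 9.75 CPM, or 0.75 as a log2 fold change. Egr1, an immediate early transcription factor, rose from 13.4 ± 1.96 to 20.8 ± 1.99 CPM (SD, n = 3 throughout), or 0.60 as a log2 fold change. Their adjusted p-values by edgeR were 0.00610, 0.000372, 2.38e-05 and 0.00176, and none of these calls was lost in any alternative. Myc, Etv1, Ier2 and Fosl1 did not pass.

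Other inhibitors of RAS and ERK showed 6 of 12 higher and none lower, with a median log2 fold change of 0.27. Il17rd, a transmembrane inhibitor of FGF receptors, rose from 3.99 ± 0.448 to 7.45 ± 0.483 CPM. The log2 difference was 0.87 (edgeR adjusted p-value 0.000678). Spred1, a relative of the Sprouty genes that recruits neurofibromin to RAS, rose from 97.96 ± 12.2 to 122 ± 2.44 CPM. Its log2 fold change was 0.31, with an edgeR adjusted p-value of 0.010. Both of the next calls depended on single libraries. The nuclear ERK phosphatase gene Dusp5 had a log2 fold change of 0.76 (edgeR adjusted p-value 0.0123), and it missed the threshold when knockout replicate 2 (log2 value 0.65, adjusted p-value 0.0586) or 3 (0.74, 0.0503) was left out. Spred3 was at 0.39 (edgeR adjusted p-value 0.0452), and its call was lost with DESeq2 (0.0812), the replicate block (0.0575), the GC and length correction (0.0604), and without WT replicate 1 (0.112) or 3 (0.0799) or knockout replicate 2 (0.123) or 3 (0.194). The count of 6 fell to 3 without WT replicate 1 and to 2 without knockout replicate 2 or 3. Nf1, Rasa1, Dusp4, Dusp7, Errfi1 and Lztr1 did not pass.

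Many cell surface partners of FGF were also called. Among other FGF receptors and co-receptors 8 of 13 were higher and none lower, with a median log2 fold change of 0.29. The largest were glypicans, heparan sulfate proteoglycans held at the membrane by a lipid anchor. Gpc2 rose from 6.77 ± 0.240 to 12.4 ± 1.28 CPM and Gpc6 from 36.6 ± 3.34 to 55.9 ± 4.50 CPM, log2 fold changes of 0.89 and 0.60. Gpc1 rose from 36.2 ± 1.37 to 53.7 ± 1.16 CPM and Gpc4 from 419 ± 10.6 to 593 ± 11.6 CPM (SD, n = 3), log2 fold changes of 0.57 and 0.50. Their adjusted p-values by edgeR were at most 0.000145. Gpc3 did not pass.

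Enzymes that build or trim heparan sulfate had 6 of 16 higher and 1 lower, with a median of 0.21. Sulf1, an extracellular sulfatase that removes sulfate groups needed for FGF binding, rose from 78.4 ± 6.85 to 135 ± 4.15 CPM. This was 0.78 on the log2 scale, with an edgeR adjusted p-value of 3.67e-06. Hs6st2, a sulfotransferase that adds such groups, fell from 17.4 ± 1.89 to 10.4 ± 0.829 CPM. The log2 difference was -0.73 (edgeR adjusted p-value 0.000292). Hs6st1, a gene of the same sulfotransferase family, moved the other way with a log2 fold change of 0.31 (edgeR adjusted p-value 0.0148). Leaving out WT replicate 3 (log2 value 0.25, adjusted p-value 0.0580) ended the call, as did leaving out knockout replicate 1 (0.29, 0.0532) or 2 (0.29, 0.0575). Ndst1, which starts the sulfation, had a log2 fold change of 0.32 (edgeR adjusted p-value 0.0288). This was 0.18 without WT replicate 2 and lost its call without knockout replicate 1 (0.30, 0.103), 2 (0.31, 0.0874) or 3 (0.34, 0.0640). The count of 6 higher fell to 2 without knockout replicate 1 or 2.

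Of the 21 other genes of the FGF family, not all of which encode ligands of the receptors, 8 were tested, 2 were higher and none was lower. Fgf11, an intracellular family member that does not act through the receptors, had 2.58 ± 0.173 CPM in WT and 3.85 ± 0.513 in the knockout (log2 fold change 0.60, edgeR adjusted p-value 0.0325). That call was lost with DESeq2 (0.60, adjusted p-value 0.0626) and when WT replicate 1 (0.54, 0.104) or knockout replicate 2 (0.64, 0.0615) or 3 (0.47, 0.162) was left out. Fgf18, a secreted ligand named here after its values were seen, had 22, 13 and 5 counts in WT and 33, 30 and 47 in the knockout, so its log2 fold change of 1.35 (edgeR adjusted p-value 0.0147) rests on few reads. Leaving out knockout replicate 1 ended the Fgf18 call (1.26, 0.0565). With WT replicate 1 or one of knockout replicates 1 and 3 left out, 1 gene of this family list was called. Fgf1, the ligand that binds all FGF receptors, had 11.3 ± 0.036 CPM in WT, and in the knockout 9.13 ± 1.51 CPM (SD, n = 3), and it did not pass. Fgf3, Fgf4, Fgf6 and Fgf20 had no count in any library.

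Of the 22 relay genes 5 were called in either direction, beside 26.9% of all tested genes. The adaptor gene Shc1 rose from 36.9 ± 3.71 to 47.4 ± 1.01 CPM. Its log2 fold change was 0.35, with an edgeR adjusted p-value of 0.00393. The other gene called higher was Plcg1, which encodes a phospholipase bound by FGF receptors and is named after its values were seen (log2 fold change 0.22, edgeR adjusted p-value 0.0129). Plcg1 lost its call without WT replicate 1 (0.21, 0.0626) and without knockout replicate 2 (0.20, 0.0627). Nras, which encodes a RAS protein, fell from 75.9 ± 1.22 to 62.2 ± 1.92 CPM (SD, n = 3). This was -0.29 on the log2 scale, with an edgeR adjusted p-value of 0.00192. The RAS gene Hras (-0.30, adjusted p-value 0.0209 by edgeR) was at -0.19 without WT replicate 2, and its call was lost without knockout replicate 1 (-0.29, 0.0788), 2 (-0.30, 0.0740) or 3 (-0.32, 0.0520). The kinase gene Map2k2 (-0.25, adjusted p-value 0.0406 by edgeR) was at -0.14 without WT replicate 2. The call was lost without WT replicate 1 (-0.27, 0.0631) and without knockout replicate 1 (-0.24, 0.131), 2 (-0.24, 0.119) or 3 (-0.26, 0.0866). Frs2, which links FGF receptors to RAS, and the kinase genes Araf, Braf and Mapk3 did not pass. The 3 genes called lower were 1 without any one of the knockout libraries, 2 without WT replicate 1 and 4 without WT replicate 2.

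Other receptor tyrosine kinases also feed ERK, and 9 of 17 tested were higher and 1 lower, with a median log2 fold change of 0.34. Kdr, a receptor for VEGF, rose from 38.1 ± 3.16 to 127 ± 2.16 CPM. The log2 difference was 1.73 (edgeR adjusted p-value 2.20e-08). Flt1, another VEGF receptor, fell from 11.4 ± 0.649 to 3.81 ± 0.277 CPM (SD, n = 3). Its log2 fold change was -1.58, with an edgeR adjusted p-value of 2.49e-06. Kit, the receptor for stem cell factor, and Igf1r, a receptor for insulin-like growth factors, had log2 fold changes of 0.79 and 0.56, with adjusted p-values of 0.000563 and 0.00146 by edgeR. Among ligands of these receptors 4 of 13 were higher and 1 was lower. The latter was Igf1, named after its values were seen, at a log2 fold change of -0.31 (edgeR adjusted p-value 0.00434). Hbegf, a ligand of the EGF receptor, rose from 38.4 ± 0.663 to 55.7 ± 2.22 CPM. This was 0.54 on the log2 scale, with an edgeR adjusted p-value of 3.64e-05. Pdgfb and Pdgfc, ligands of the PDGF receptors, had log2 fold changes of 0.50 and 0.45, with adjusted p-values of 0.00148 and 0.00111 by edgeR. Nrg1, a ligand of ERBB receptors, was at 0.38 (edgeR adjusted p-value 0.0106) and lost its call without knockout replicate 1 (0.34, 0.0532). Egfr, Erbb2 and Pdgfra did not pass.

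Markers of other cell types moved with genotype beside these changes. Fibroblast markers were higher in 8 of 10 cases and lower in none, with a summed level of 344 to 386 CPM in WT and 525 to 538 CPM in the knockout. Col1a1 rose from 22.4 ± 4.48 to 44.7 ± 4.85 CPM (SD, n = 3), and Pdgfra and Col6a3 did not pass. Of the mural and endothelial markers, 5 of 10 were tested, 4 were higher and Flt1 was lower. The endothelial genes Pecam1, Cdh5 and Cldn5 fell under the count filter, with 2 to 5, 2 to 26 and 0 to 1 counts per library. The summed level of that list was 804 to 848 CPM in WT and 947 to 1022 CPM in the knockout. Microglia markers were lower in 11 of 12 cases, with a summed level of 1826 to 1924 CPM in WT and 1200 to 1247 CPM in the knockout. No fibroblast, mural, endothelial or microglia marker was at 0 in all libraries. Pdgfrb, Flt1 and Pdgfra stand both in these lists and among the receptor tyrosine kinases. Radial glia and astrocyte markers had 3 of 15 higher and 3 lower (5 higher and 5 lower without WT replicate 2), with a summed level of 11548 to 11898 CPM in WT and 12449 to 12977 CPM in the knockout. Of the neuron markers 2 of 7 were lower, and of the oligodendrocyte lineage markers 1 of 7 was higher (0 without WT replicate 3 or either of knockout replicates 1 and 3). Pituitary markers summed to 17.2 to 20.4 CPM in WT and 29.0 to 35.5 CPM in the knockout, with 3 of 4 tested higher and 1 lower, and Fshb at 0 in every library. The part of these cell types in the rise of Spry1, Etv4 and Etv5 was not tested.

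Genes with a similar profile over the libraries were sought for the called members of highest and lowest fold change, Spry1 and Etv5. Likeness was measured as the root mean square difference in log2 CPM relative to the WT mean over the 6 libraries, among tested genes with a mean log2 CPM of at least 1. The nearest to Spry1 were St14, Nnt and Nup210, at 0.062, 0.067 and 0.071. The nearest to Etv5 were Capn5, Cramp1l and Peg10, at 0.025, 0.030 and 0.037. None of these 6 genes belongs to the pathway lists.

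**Figure D5:**
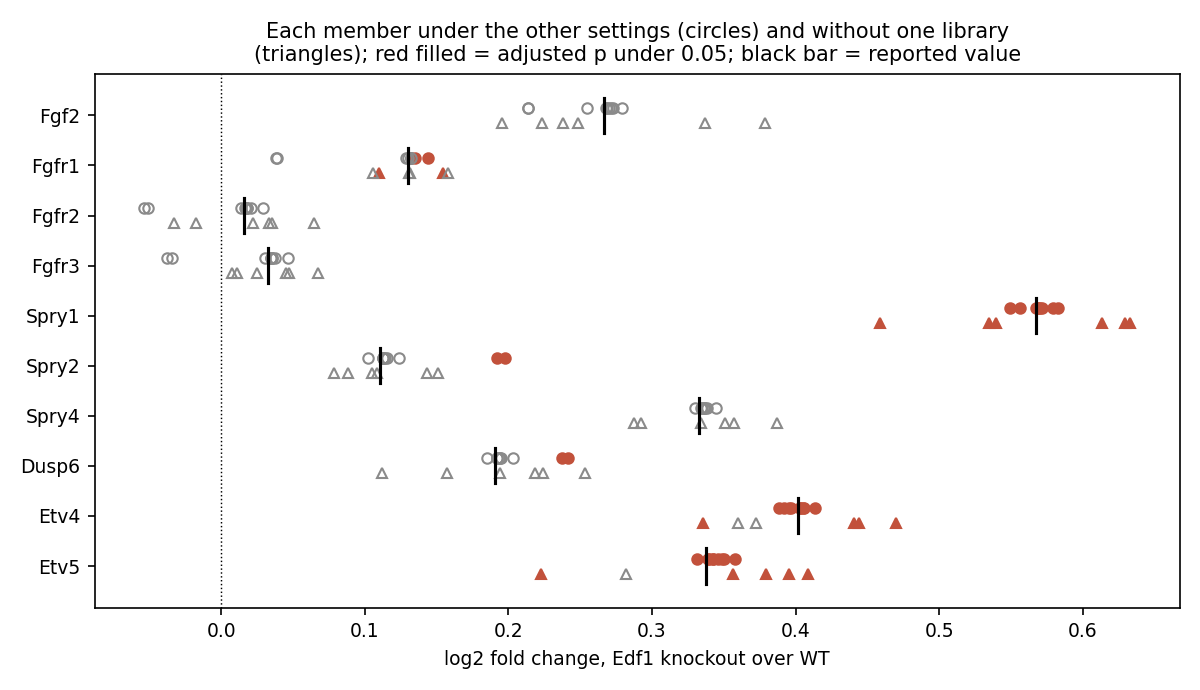
Log2 fold change of Edf1 knockout over WT for each gene under each other setting (circles) and with each library left out in turn (triangles), filled red where the adjusted p-value was under 0.05, with the reported value as a black bar. Spry1 is filled throughout at 0.46 to 0.63, and Fgfr2 and Fgfr3 lie on both sides of 0.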

How the data were processed

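The authors deposited raw read counts per gene symbol, 1 column per library, for 3 WT and 3 Edf1 knockout libraries. Per the labels' protocols, TRIzol was used for RNA and an MGIEasy mRNA kit for the libraries. FastQC 0.11.2, cutadapt 1.11, HISAT2 2.1.0 and the build GRCm38 are named in the submitters' processing notes. The counting program, annotation, strandedness and rule for reads mapping to several places are not given in the sources used here. Depth limits the scarce genes most: a count of 3 equals 0.106 to 0.233 CPM.

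Counts were filtered with filterByExpr, which kept 14243 of 22851 genes, scaled by TMM and tested with the quasi-likelihood test of edgeR 4.0.16 in R 4.3.3, knockout against WT, no covariate. P-values were adjusted by Benjamini-Hochberg over all tested genes, with a threshold of 0.05. Each SE was derived from the log2 fold change and the F statistic. Alternatives used DESeq2 1.42.0, limma 3.58.1 (voom), other scalings and filters, a threshold of 0.01, a replicate block, a correction for GC content and length by splines with 4 degrees of freedom, and each library left out. Exon lengths came from GENCODE M21 (GRCm38) and positions and promoters from RefSeq (GRCm38.p6), matched by symbol. The fits were tested on simulated counts.

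The members and lists were chosen with earlier results of these data known. Genes named with full values besides the members are, by rule, up to 4 per list that passed the test without overlap between groups and with log2 CPM averaging 1 or more, by size of change, plus Edf1, genes whose exons overlap a member and the 3 nearest profiles to Spry1 and Etv5. Fgfr4, Fgf1, Fgf18, Plcg1, Igf1, Col1a1 and the genes named as not passing, not tested or without counts fall outside that rule and were chosen after their values were seen. Deviations from the group means correlated at 0.069, 0.060 and 0.037 between the WT and knockout libraries of the same number. Between libraries of unlike number the values were -0.072 to 0.029, so the same-number values were the higher ones, though all were small. The number was not treated as a pairing in the reported fit, and a fit with it as a block is among the alternatives. Some genes of the lists are not reported here by name.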

Additional observations from a re-analysis of the deposited data

How the results depend on the processing

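Spry1 kept its direction and its call in every alternative, and Etv4 and Etv5 kept their direction in every one. The number of the 10 genes called was 3 as reported, 5 with the correction for GC content and length (Dusp6 and Spry2 added), 1 at a threshold of 0.01, and 1 to 4 when a library was left out. At 0.01, 2213 genes in all (3833 as reported) and 30 of the pathway list genes (51 as reported) were called. The value of Fgfr2 was -0.051 with the GC and length correction and -0.054 with that correction and the replicate block, and over the fits that left out a library it was -0.033 to 0.065, below 0 without WT replicate 2 (-0.033) and knockout replicate 2 (-0.018). That of Fgfr3 was -0.034 and -0.038 in the first pair of settings. Neither passed the threshold in any. The cause was not tested. With the replicate number as a block 4065 genes, 3 of the 10 and 51 of the pathway list genes were called. With the block and the GC and length correction together 5 of the 10 were called. Over the 6 fits that left out a library, 2658 to 4340 genes and 35 to 55 pathway list genes were called, and the Fgfr1 share differed by 1.35 to 2.11 percentage points. The Fgfr2 share differed by -1.55 to -0.70, the Fgfr3 share by -1.20 to -0.32 and the Fgfr4 share by 0.035 to 0.137. Scarce genes such as Spry4 (25 to 79 counts) and Fgf2 (71 to 199 counts) limit what this depth can show.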
